A study of Arabidopsis thaliana with 12 samples.

Results

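The effect of genotype was compared between organs in Arabidopsis thaliana: for each gene, the change from wild type to the pdx1.3 ko mutant in leaves was set against the same change in roots. All 12 arrays of the study entered this comparison, with 3 arrays in each combination of genotype (WT or pdx1.3, called the mutant below) and organ. Every plant was of the Col-0 ecotype, and was harvested 10 days after germination from a medium that held 1% sucrose and lacked vitamin B6. The day had 16 h of light at 22 °C and 8 h of darkness at 18 °C. Leaves and roots were collected separately, the series design names the 3 samples of each group as biological replicates, and each RNA was read on a separate Affymetrix ATH1 array, which measures a gene through a set of short probes in 1 colour. With only this mutant and WT, and no other allele or rescued line, effects of the PDX1.3 loss and of anything else that differs in this line cannot be told apart.

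PDX1.3 encodes a catalytic subunit of the synthase that makes pyridoxal phosphate, the form in which vitamin B6 serves as a cofactor of many enzymes of amino acid metabolism. Plants make this vitamin in leaves and in roots, and mutants of PDX1.3 are known for short roots on medium without it. Abscisic acid (ABA) and jasmonate are stress hormones whose target genes respond in both organs, whereas the triterpenes marneral and thalianol are made from gene clusters known for their expression in roots.

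The signal of a probe set is a linear brightness without a unit, scaled alike on all arrays, with a median of 35.3 over all probe sets and arrays. Changes are given as differences of log2(signal + 16), which understates the change of dim genes. The interaction is the change in leaves minus the change in roots. It is above 0 where the mutant is relatively higher in leaves, and below 0 where it is relatively higher in roots. Changes were tested with limma on 22746 probe sets, and called at a Benjamini-Hochberg adjusted p under 0.05. Between 64.3 and 72.8% of probe sets were called present per array. The summed signal of 8 measured leaf markers (photosynthesis genes) was 33544 to 42146 in leaves and 582 to 1357 in roots, and that of 16 root markers 975 to 1466 in leaves and 6510 to 8488 in roots, so that the arrays followed their organ labels.

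PDX1.3 (AT5G01410) was read first, as a check of the genotype labels, because 1 entry among the sample characteristics reads the opposite of the titles for all 12 samples. Its signals were 591, 942 and 935 in WT leaves and 40.5, 38.2 and 50.5 in mutant leaves. In roots they were 264, 282 and 282 in WT and 116, 95.8 and 82.1 in pdx1.3. The samples titled as knockout were lower in both organs with no overlap, and the fall was deeper in leaves: -3.80 against -1.37, an interaction of -2.43 (95% interval -2.98 to -1.89, limma adjusted p = 0.000665). The place of its probes relative to the mutation is not stated, so the remaining signal does not show an intact transcript. Of the remaining genes of vitamin B6 metabolism 5 were measured, and none (of PDX1.2, PDX2, PDX3, PLR1 and SOS4) was called for the interaction, with values of 0.0093 to 0.41. The share called over all probe sets was 1.87%.

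Most of the mutant's changes that could be assigned to an organ were changes of leaves. For the interaction 425 probe sets were called, 1.87% of those tested, and 3012 had an unadjusted p under 0.05. Of the 425, 257 lay above 0 (1.13%) and 168 below 0 (0.739%). The difference between organs was at least 2-fold for 307 of them (1.35%). Sorted by the organ that moved, 332 were called in leaves alone and 75 in roots alone. A further 13 were called in neither organ, 3 in both organs in the same direction, and 2 in both in opposite directions. Of the 332 leaf genes 220 rose and 112 fell, and of the 75 root genes 46 rose and 29 fell. In bulk organs, a change in the share of a cell type and a change in RNA per cell cannot be told apart.

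**Figure D1:**
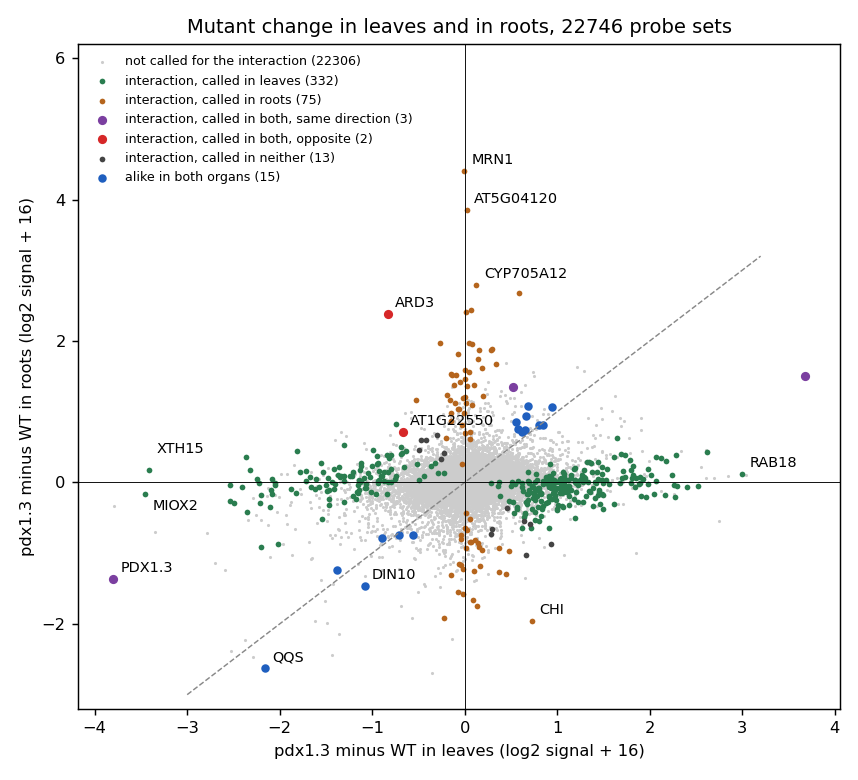
Change from WT to pdx1.3 in leaves (horizontal axis) and in roots (vertical axis), both in log2(signal + 16), for 22746 probe sets, with 1 point each. Colours mark the classes named in the text, the dashed line marks equal change, and the 332 green and 75 brown points lie along the axes of their organ.

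In the organ where these genes were not called, their changes were small. The 220 genes that rose in leaves had a median of 1.07 there and of -0.0349 in roots, and the 112 that fell had medians of -1.20 and 0.0477. The 46 genes that rose in roots had a median of 1.39 there and of 0.0037 in leaves, and the 29 that fell had medians of -0.96 and 0.0569. The values that chose these genes are the same ones, so the medians are a description. The 95% interval of the change in the other organ lay within 1 log2 unit of 0 for 218 of the 220, 108 of the 112, 46 of the 46 and 28 of the 29. Of all 22746 probe sets 21840 had such an interval for the root change and 20686 for the leaf change. The genes were chosen for having no call in the other organ, so these counts too are a description.

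Whether the gene is measured at all in the other organ was examined with the authors' detection calls, in a split chosen after the values were seen. A gene counted as present in an organ with at least 2 of 3 present calls in either genotype. Of the 332 leaf genes 225 were present in both organs (67.8%), 88 in leaves only and 19 in neither. Of the 75 root genes 21 were present in both organs (28.0%), 53 in roots only and 1 in neither, and over all probe sets 14135 of 22746 were present in both (62.1%). The share of the leaf genes was thus near that of all probe sets, and most of the root genes were not present in leaves.

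The number of calls changed with the array that was left out. In the 12 fits that each left out 1 array, between 137 (without WT roots replicate 2) and 554 (without pdx1.3 roots replicate 3) probe sets were called. Counts lower by more than 1.5 times also followed without pdx1.3 roots replicate 1 (178) or 2 (195), WT roots replicate 3 (237), pdx1.3 leaves replicate 2 (265) or 3 (273), and WT leaves replicate 2 (272). None of the 425 probe sets turned its direction in any of the 12 fits, and 124 were called in all of them: 91 of the 332 leaf genes, 30 of the 75 root genes, both opposite genes, 1 of the 3 and 0 of the 13. The 425 were chosen by their call on the same arrays, so their kept direction is a description. The genes described next with per-array signals are among the 124, apart from JAR1, a probe set shared by several loci, and the genes named as alike in both organs.

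In leaves alone, the deepest falls included genes of the cell wall, inositol breakdown and stress response. XTH15 (AT4G14130), a xyloglucan-modifying enzyme of the cell wall, had signals of 527, 299 and 270 in WT leaves and 16.8, 15.8 and 22.7 in mutant leaves. In roots it had 175, 279 and 221 in WT and 257, 264 and 239 in pdx1.3. The genotypes were far apart in leaves and overlapped in roots, with changes of -3.41 and 0.18 and an interaction of -3.60 (95% interval -4.27 to -2.92, limma adjusted p = 0.0003). MIOX2 (AT2G19800), which oxidises myo-inositol, had 734, 742 and 504 in WT leaves, 31.2, 58.2 and 48.2 in mutant leaves, 333, 347 and 260 in roots of WT, and 266, 308 and 259 in mutant roots. It again parted the genotypes in leaves and not in roots, with an interaction of -3.30 (95% interval -3.89 to -2.70, limma adjusted p = 0.000246).

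The transcription factor DREB26 (AT1G21910) was also lower in leaves only, with 238, 478 and 400 in WT leaves and 59.5, 54.9 and 55.0 in mutant leaves. In roots the values were 99.8, 98.3 and 60.3 in WT and 88.1, 177 and 90.6 in pdx1.3, which overlapped. Its interaction was -2.73 (limma adjusted p = 0.00494). CYP71B22, a cytochrome P450, fell in leaves by 2.32 on the log2 scale and had 3 absent calls in roots of WT, and its interaction was -2.50 (limma adjusted p = 0.00478). The lectin gene PP2-A5 had an interaction of -2.51 (limma adjusted p = 0.0153), and its second probe set had -1.92 (adjusted p = 0.0275). The call of the first ended without WT roots replicate 2 (adjusted p = 0.0525).

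The ABA, drought and cold genes formed the group with the most leaf calls. Of 27 measured members 23 rose and 1 fell in leaves, while in roots 1 rose. Of all probe sets 4.7% rose and 2.51% fell in leaves (7.22% together), and 0.497% rose and 0.312% fell in roots (0.809% together). For the interaction 11 were called above 0 and 1 below 0, beside 1.13% and 0.739% of all probe sets. The median change of the 27 was 1.66 in leaves and 0.081 in roots, with a median interaction of 1.65. The medians of all 21439 genes were all within 0.02 of 0. Of the 27, 16 were present in both organs. For a member that was not present in roots, a root change near 0 is no measure of its response there. The list was chosen with earlier results of these data known, so its direction is not independent evidence. The 12 other members that rose in leaves had no interaction call, among them LEA7 (2.93, limma adjusted p = 0.113), HAI1 (1.89, adjusted p = 0.122) and RD29A (1.71, adjusted p = 0.0760), and for them a difference between organs was not shown.

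ABI1 (AT4G26080), a phosphatase that restrains ABA signalling, was at like levels in the organs of WT. Its signals were 125, 176 and 163 in WT leaves, 466, 737 and 474 in mutant leaves, 161, 195 and 186 in roots of WT, and 178, 184 and 214 in mutant roots. Leaves were separated without overlap and roots overlapped, with an interaction of 1.65 (95% interval 1.1 to 2.2, limma adjusted p = 0.00831). NCED3, the enzyme that limits the rate at which ABA is made, rose from 6.25, 13.0 and 12.3 to 68.3, 140 and 87.5 in leaves, while no root array exceeded 8.52. Its interaction was 2.06 (limma adjusted p = 0.00512), and the call ended with a constant of 1 in place of 16 (2.96, adjusted p = 0.0579).

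The dehydrin RAB18 and the hydrophilic protein gene RD29B, markers of the ABA response, showed the same split. RAB18 had 42.5, 76.6 and 125 in WT leaves and 769, 951 and 497 in mutant leaves, and was called absent on all 6 root arrays. RD29B had 17.4, 37.2 and 34.7 in WT leaves, 246, 427 and 130 in mutant leaves, and 7.37 to 12.0 on the 6 root arrays. Their interactions were 2.88 and 2.57 (limma adjusted p = 0.00467 and 0.0134). The call of RAB18 ended with a constant of 1 (2.62, adjusted p = 0.0802). A gene that is absent in roots gives no measure of the size of its change there.

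PRODH1 (AT3G30775), which breaks down proline, was the member of the ABA list that fell. It had 986, 1076 and 882 in WT leaves and 296, 177 and 147 in mutant leaves, against 407, 483 and 575 in roots of WT and 386, 420 and 370 in mutant roots. The leaf groups lay far apart and the root groups overlapped, with an interaction of -1.92 (95% interval -2.56 to -1.28, limma adjusted p = 0.00831).

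**Figure D2:**
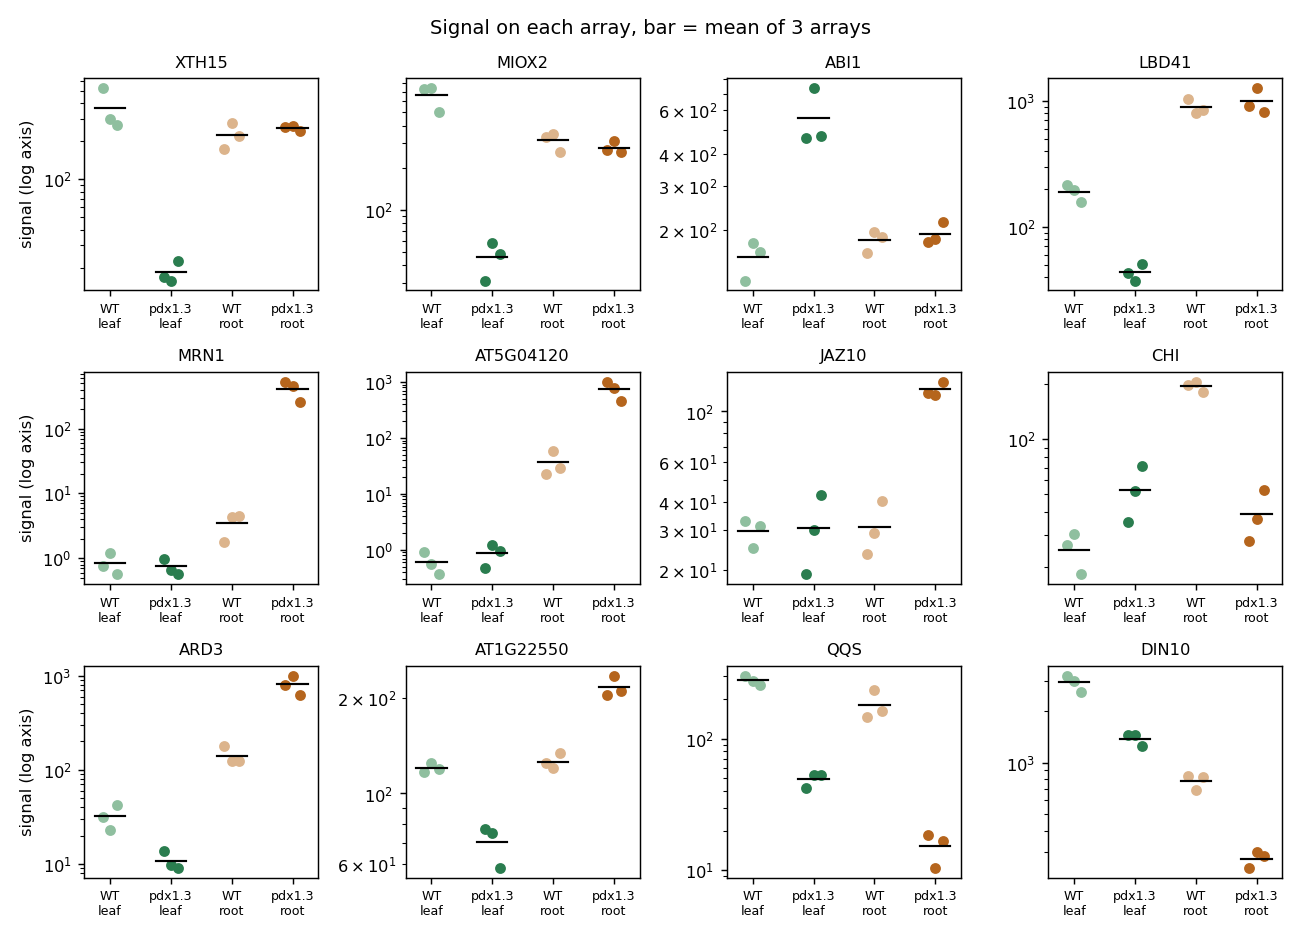
Signal of 12 genes on each array (vertical log axis, own scale for each gene), with 1 point per array, 3 arrays in each of 4 groups, and a bar at the group mean. From the left, XTH15, MIOX2, ABI1 and LBD41 part the genotypes in leaves, MRN1, AT5G04120, JAZ10 and CHI in roots, ARD3 and AT1G22550 in opposite directions, and QQS and DIN10 alike in both organs. CHI also lies apart in leaves, in the other direction and without a call.

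Further genes with the highest interaction values rose in leaves and had no call in roots. AT1G52000, of the jacalin lectin family, went from 14.5, 28.9 and 37.3 to 184, 180 and 206 in leaves. It did not exceed 2.91 on any root array, a level that gives no measure of the size of its change there. Its interaction was 2.34 (95% interval 1.8 to 2.88, limma adjusted p = 0.000848). ORA47, a transcription factor of the jasmonate response, went from 26.1, 53.7 and 65.9 to 234, 225 and 341 in leaves, with root values of 11.3 to 27.8, and had an interaction of 2.33 (adjusted p = 0.0066). The protein kinase CIPK5 was present on all arrays. It went from 17.4, 48.8 and 62.3 to 213, 220 and 207 in leaves, whereas its roots had 41.3, 57.4 and 49.2 in WT and 36.3, 47.8 and 42.8 in pdx1.3.

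The interaction of CIPK5 was 2.21 (limma adjusted p = 0.00866), and that of the transcription factor MYB47 was 2.19 (adjusted p = 0.000568). MYB47 was called absent on all 6 root arrays and all 3 WT leaf arrays, and with a constant of 1 its call ended (1.88, adjusted p = 0.222). AT3G28220 (2.48, adjusted p = 0.0181), AT2G15020 (2.47, adjusted p = 0.0148) and AT2G41190 (2.30, adjusted p = 0.0259) completed the 10 highest values with CHI, a root gene. AT2G15020 lost its call without WT roots replicate 2 (adjusted p = 0.0511). AT3G28220 lost it without WT roots replicate 2 (0.0531) or pdx1.3 roots replicate 1 (0.0540) or 2 (0.0503). AT2G41190 lost it without WT roots replicate 2 (0.0730) or 3 (0.0723), pdx1.3 leaves replicate 2 (0.0554), or pdx1.3 roots replicate 1 (0.0696) or 2 (0.0766). With a constant of 1 AT2G15020 (adjusted p = 0.0595) and AT2G41190 (adjusted p = 0.0565) lost their calls too.

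Of 15 measured genes induced by low oxygen 9 fell in mutant leaves, none fell in its roots and 1 rose there. Of all probe sets 2.51% fell in leaves, and 0.312% fell and 0.497% rose in roots. The lack of falls in roots was thus near the overall share. The interaction of 5 was called, all below 0, beside 0.739% of all probe sets. A call below 0 can rest on a fall in leaves, a rise in roots or both. ARD3, also induced by low oxygen and described below, moved more in roots than in leaves. For the other 10 a difference between organs was not shown. The median change was -0.83 in leaves and 0.15 in roots, beside about 0 for all genes. The transcription factor gene LBD41 (AT3G02550) had 215, 195 and 156 in WT leaves, 42.7, 37.4 and 50.4 in mutant leaves, 1032, 802 and 840 in roots of WT, and 916, 1265 and 822 in mutant roots. Its level was several times higher in roots, where the genotypes overlapped, and its interaction was -1.93 (95% interval -2.47 to -1.38, limma adjusted p = 0.00296).

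PCO1 (AT5G15120), a cysteine oxidase of the oxygen-sensing pathway, had 99.4, 54.0 and 46.8 in WT leaves and had 3 absent calls in the mutant's leaves. In roots it had 652, 575 and 644 in WT and 572, 642 and 482 in pdx1.3, which overlapped. Its interaction was -1.67 (limma adjusted p = 0.0112), and the call ended with a constant of 64 (-0.73, adjusted p = 0.0882). The haemoglobin gene HB1, named after its values were seen, had an interaction of -2.27 (adjusted p = 0.0277) and was called in 6 of the 12 fits without 1 array.

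Genes of the triterpene clusters rose in mutant roots. All 8 measured genes of the marneral and thalianol clusters rose in roots, 1 rose in leaves, and all 8 were called for the interaction below 0. Over all probe sets 0.497% rose in roots, 4.7% rose in leaves and 0.739% had an interaction called below 0. The median change of the 8 was 1.78 in roots and 0.10 in leaves, with a median interaction of -1.52. The list was chosen knowing earlier results, and neighbouring genes of a cluster are not independent. MRN1 (AT5G42600), the marneral synthase, gave 1.8, 4.29 and 4.46 in roots of WT, where it was called absent, and 525, 459 and 253 in mutant roots. On the 6 leaf arrays, all called absent, it stayed between 0.566 and 1.19. The interaction of -4.41 (95% interval -5.03 to -3.78, limma adjusted p = 4.44e-05) was the lowest of all named genes.

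The cytochrome P450 genes of the same cluster rose in roots as well. CYP705A12 (AT5G42580) had 6.14, 17.2 and 8.19 in roots of WT and 207, 146 and 147 in mutant roots, with 0.980 to 5.67 on leaf arrays. CYP71A16 (AT5G42590) had 41.4, 75.5 and 67.3 in roots of WT and 471, 440 and 298 in mutant roots, and was called absent on all 6 leaf arrays. The root genotypes did not overlap in either gene, and the interactions were -2.67 and -2.37 (limma adjusted p = 0.0003 and 0.00296). With a constant of 1 CYP71A16 lost its call (-2.23, adjusted p = 0.208). In the thalianol cluster THAS1, THAD and THAH, its synthase and 2 oxidising enzymes, had root changes of 1.89, 1.67 and 1.34 with interactions of -1.6, -1.33 and -0.83.

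THAS1 lost its call in 1 of the 12 fits, and THAH kept it in 1 of the 12. The call of THAH in leaves (0.52, limma adjusted p = 0.0333) rests on signals of 0.218 to 9.88 that were called absent on all 6 leaf arrays. Both clusters are known for expression in roots, and leaves gave no measurable level for most of their genes, so the interaction here compares a change in roots with the absence of signal in leaves.

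AT5G04120, of the phosphoglycerate mutase family, had the next lowest interaction. It gave 22.6, 58.4 and 29.1 in roots of WT and 1005, 787 and 456 in mutant roots. It was called absent on all 6 leaf arrays, which thus gave no measure of the size of its change there. The interaction was -3.83 (95% interval -4.65 to -3.0, limma adjusted p = 0.000551). JAZ10 (AT5G13220), a repressor of jasmonate signalling, was called present on all 12 arrays. It had 32.8, 25 and 31.4 in WT leaves, 19.2, 30.2 and 42.8 in mutant leaves, 23.5, 29.1 and 40.4 in roots of WT, and 121, 118 and 135 in mutant roots. Only the pdx1.3 roots stood apart, with changes of 0.0032 in leaves and 1.6 in roots and an interaction of -1.59 (95% interval -2.17 to -1.02, limma adjusted p = 0.0123).

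The putative chitinase gene CHI (AT2G43570) was the strongest fall in roots among the named interaction genes. It had 197, 206 and 182 in roots of WT and 27.9, 36.5 and 52.6 in mutant roots. In leaves it had 26.4, 30.4 and 18.3 in WT and 35.5, 51.9 and 71.9 in pdx1.3, so that leaves did not overlap either, in the other direction. The root change was -1.96 (limma adjusted p = 0.000561), the leaf change 0.73 (adjusted p = 0.0553, not called), and the interaction 2.69 (95% interval 2.05 to 3.33, adjusted p = 0.00114). Beside the falls in roots, the summed signal of the 8 leaf markers was 823 to 1357 in roots of WT and 582 to 871 in mutant roots, with none of the 8 called, and its part in the root results was not tested.

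Both genes with opposite calls, 0.00879% of those tested, fell in leaves and rose in roots. ARD3 (AT2G26400), an acireductone dioxygenase of the methionine salvage cycle that is also induced by low oxygen, had 31.9, 22.8 and 42.0 in WT leaves and 13.8, 9.73 and 9.05 in mutant leaves. In roots it had 177, 123 and 124 in WT and 805, 1000 and 619 in pdx1.3. The genotypes did not overlap in either organ, with changes of -0.83 (limma adjusted p = 0.0259) and 2.38 (adjusted p = 0.00011) and an interaction of -3.21 (95% interval -3.83 to -2.59, adjusted p = 0.0003).

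AT1G22550, a transporter of the proton-dependent oligopeptide family, was the other. It had 117, 125 and 119 in WT leaves, 77.2, 75.2 and 58.2 in mutant leaves, 125, 120 and 134 in roots of WT, and 204, 235 and 210 in mutant roots. WT was at one level in both organs, and the mutant lay below it in leaves and above it in roots, by -0.67 and 0.71 (interaction -1.38, 95% interval -1.74 to -1.01, limma adjusted p = 0.00234). The interaction of both genes was called in all 12 fits without 1 array. The number of opposite genes was 1 in 7 of these fits, 4 without WT leaves replicate 1 and 7 without pdx1.3 roots replicate 3.

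Jasmonate genes were divided over the patterns. Of 22 measured members 9 rose in leaves and 5 in roots, with none falling in either, and the medians were 0.71 and 0.50. Of all probe sets 4.7% rose and 2.51% fell in leaves, and 0.497% rose and 0.312% fell in roots. The lack of falls was thus near the overall share, and the medians of all genes were about 0. For the interaction 2 were called above 0 and 1 below 0, beside 1.13% and 0.739% of all probe sets. JAR1, which joins jasmonate to isoleucine, was higher in leaves alone, with 125, 105 and 97.3 in WT and 198, 230 and 225 in pdx1.3, and its roots overlapped at 346 to 374. Its interaction of 0.92 (limma adjusted p = 0.0149) lost its call without WT roots replicate 2 (adjusted p = 0.0528). The repressor JAZ9 (1.25, adjusted p = 0.0427) was called in 4 of the 12 fits and not with a constant of 1 (adjusted p = 0.294), and MYC2, the main transcription factor of the pathway, was not called for the interaction (1.16, adjusted p = 0.0540).

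**Figure D3:**
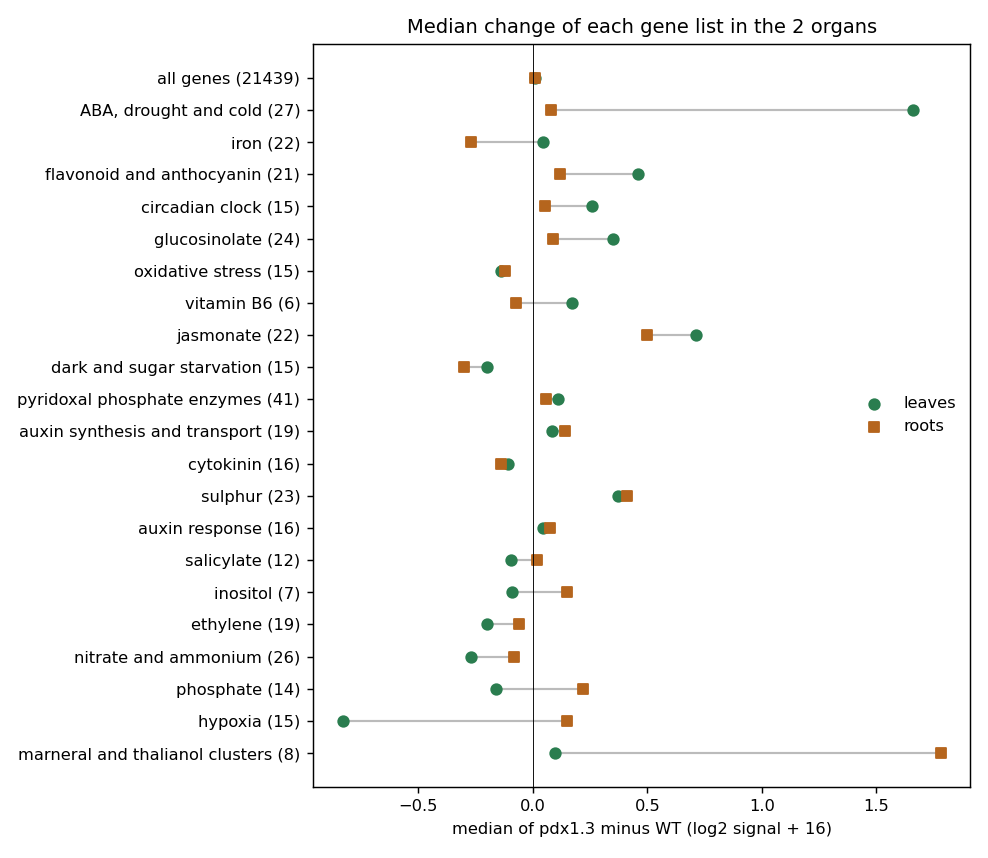
Median change from WT to pdx1.3 in log2(signal + 16) of each gene list in leaves (circles) and in roots (squares), with the number of measured genes in brackets. The ABA list is far to the right in leaves alone (1.66 against 0.081), the marneral and thalianol clusters in roots alone (1.78 against 0.10), and the hypoxia list to the left in leaves (-0.83 against 0.15). Genes present in both organs numbered 16 of 27 in the ABA list, 2 of 8 in the cluster list and 13 of 15 in the hypoxia list.

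Among the nutrient lists, those of phosphate and iron held 3 interaction calls each and those of sulphur and nitrate 1 each, beside 1.87% of all probe sets. Of 14 phosphate genes 3 were called, all below 0, and each of the 3 fell in leaves without a call in roots. MGD2, an enzyme that makes galactolipids when phosphate is short, had 226, 270 and 203 in WT leaves, 113, 105 and 120 in mutant leaves, 104, 117 and 107 in roots of WT, and 133, 137 and 130 in mutant roots. The groups did not overlap in either organ and lay in opposite orders, but only the leaf change passed (-0.95, against 0.26 with limma adjusted p = 0.753). The interactions were -1.20 for MGD2, -1.10 for PLDZ2, a phospholipase of the same response, and -1.23 for MGD3 (adjusted p = 0.00467, 0.0114 and 0.0255). MGD3 was called in 6 of the 12 fits.

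Of 22 iron genes 4 fell in roots and 3 were called for the interaction above 0, beside 0.312% and 1.13% of all probe sets. The transcription factor gene BHLH101 (0.80, limma adjusted p = 0.0192) rose in leaves, while F6'H1, of coumarin synthesis (0.90, adjusted p = 0.0248), and NAS2, a nicotianamine synthase (0.93, adjusted p = 0.0481), fell in roots. Of 23 sulphur genes 3 rose in each organ, beside 4.7% of all probe sets in leaves and 0.497% in roots. For the interaction 1 was called: GGCT2;1, which degrades glutathione, rose by 1.52 in roots alone (interaction -1.62, limma adjusted p = 0.0249). Of 26 nitrate genes only NRT1.5, a nitrate transporter that loads the xylem, was called (1.06, adjusted p = 0.0368). These genes were called in 8 (BHLH101), 7 (F6'H1), 2 (NAS2), 7 (GGCT2;1) and 3 (NRT1.5) of the 12 fits. With a constant of 1 F6'H1, NAS2 and NRT1.5 lost their calls (adjusted p = 0.149, 0.208 and 0.0856), and NAS2 and NRT1.5 did so with quantile normalization or centring as well.

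In 6 further lists 1 or 2 members were called. Called for the interaction were 2 of 16 auxin response genes, 1 of 19 ethylene genes, 2 of 21 flavonoid genes, 1 of 24 glucosinolate genes, 2 of 15 clock genes and 2 of 7 inositol genes. The share of all probe sets was 1.87%. Of 15 genes of darkness and sugar starvation 1 was called above 0 and 1 below 0, while 4 fell and 1 rose in leaves and 2 fell in roots. Over all probe sets 2.51% fell and 4.7% rose in leaves, and 0.312% fell in roots. IAA14, a repressor of auxin response, had 46.8, 58.3 and 64.4 in WT leaves, 182, 177 and 157 in mutant leaves, 96.4, 98.8 and 81.6 in roots of WT and 110, 118 and 86.6 in mutant roots. It parted the genotypes in leaves alone, and its interaction was 1.23 (limma adjusted p = 0.0101). Its relative IAA19 went the other way (-1.32, adjusted p = 0.0149), with a call that ended without WT roots replicate 2 (adjusted p = 0.0528).

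The ethylene synthesis gene ACS7 had an interaction of -2.01, the anthocyanin regulators PAP1 and PAP2 of 0.95 and 0.65, and the glucosinolate regulator MYB34 of 1.22. The clock genes PRR9 and RVE2 had 1.47 and 1.3, MIPS2, of inositol synthesis, 1.02, and KMD4, which targets cytokinin regulators for degradation, 1.36. These calls had limma adjusted p-values of 0.0204 to 0.0449, and each was called in 1 to 8 of the 12 fits. With a constant of 1 PAP1, PAP2 and MIPS2 lost their calls (adjusted p = 0.343, 0.119 and 0.106), and with a constant of 64 ACS7 did (0.0709). PAP1 lost its call also with centring (0.0703), quantile normalization (0.0741), no variance trend (0.0607) and the actin covariate (0.0512), and PAP2 with centring (0.0653), no variance trend (0.0778) and array weights per organ (0.0535). In the auxin synthesis, cytokinin, pyridoxal phosphate enzyme, salicylate and oxidative stress lists no member was called for the interaction, of 19, 16, 41, 12 and 15 measured. Of all probe sets 1.87% were called, so a lack of calls in lists of this size is near the overall share. It does not show a like change in both organs.

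The calls of the organs overlapped in 27 probe sets. These were 1.64% of the 1642 leaf calls, where 0.809% of all probe sets were called in roots, and 14.7% of the 184 root calls, where 7.22% of all were called in leaves. In 25 of the 27 the direction was the same (0.11% of probe sets tested). Across all 22746 probe sets the changes of the organs correlated at r = 0.22, and across the 8889 with all group means above the median signal at r = 0.29, where probe sets are not independent replicates and share their arrays. For 1283 leaf calls and 82 root calls without a call in the other organ the interaction was not called, so a difference between organs was not shown for them.

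A gene was described as alike where it was called in both organs in the same direction, its interaction was not called, and the 95% interval of the interaction lay within 1 log2 unit of 0, a 2-fold difference. This held for 15 genes (0.0659%), of which 9 rose (0.0396%) and 6 fell (0.0264%), with interactions of -0.40 to 0.47. DIN10 (AT5G20250), a raffinose synthase family gene induced in darkness, had 3224, 3005 and 2596 in WT leaves, 1447, 1448 and 1247 in mutant leaves, 831, 691 and 823 in roots of WT and 241, 299 and 284 in mutant roots. It was lower in the mutant in both organs without overlap, by -1.08 and -1.46 (interaction 0.38, 95% interval -0.0577 to 0.82), and was alike in all 12 fits without 1 array.

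QQS (AT3G30720), an orphan gene that affects starch content, fell most. It had 301, 276 and 254 in WT leaves, 41.9, 53.0 and 53.4 in mutant leaves, 145, 234 and 161 in roots of WT and 18.7, 10.4 and 16.8 in mutant roots. The falls were -2.16 and -2.63 (limma adjusted p = 3.56e-05 and 1.29e-05), and its interval reached 0.99, just inside the limit, so that it was alike in 3 of the 12 fits. The other genes that fell alike were CWLP, a cell wall protein gene (-1.38 and -1.24), NANA, an aspartyl protease gene (-0.89 and -0.79), the transcription factor gene AT5G07580 (-0.71 and -0.74) and the bZIP gene BZO2H3 (-0.56 and -0.74). They were alike in 2 to 3 of the 12 fits.

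Among the 9 genes that rose alike, PMAT2, an acyltransferase of phenolic glucosides, had 29.0, 33.8 and 29.0 in WT leaves, 94.2, 71.7 and 58.2 in mutant leaves, 17.7, 15.5 and 15.8 in roots of WT and 71.0, 40.8 and 47.4 in mutant roots. Its changes were 0.94 and 1.07 with no overlap in either organ (interaction -0.13, 95% interval -0.67 to 0.42), and it was alike in 10 of the 12 fits. JAZ3, a jasmonate repressor, had 125, 140 and 167 in WT leaves, 231, 227 and 205 in mutant leaves, 284, 286 and 292 in roots of WT and 514, 519 and 459 in mutant roots. JAZ3 thus rose in each organ (0.57 and 0.76), in contrast to JAZ10 and JAZ9 of the same family, and was alike in 9 of the 12 fits.

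The others were AT3G51450, of the strictosidine synthase family (0.68 and 1.08), the putative sugar transporter AT3G05400 (0.85 and 0.81), the methyltransferase AT5G37990 (0.81 and 0.82), CYP707A1, which degrades ABA (0.67 and 0.94), CYP94B1, which oxidises jasmonoyl-isoleucine (0.55 and 0.86), AT5G61290, of the flavin monooxygenase family (0.65 and 0.74), and the small GTPase RABC2b (0.62 and 0.72). CYP707A1 was the 1 member of the ABA list that rose in roots. RABC2b was called absent on all 6 leaf arrays, and CYP707A1, CYP94B1 and AT5G37990 on all 3 WT leaf arrays, and AT5G61290 was present on no WT array, so the size of these leaf changes depends on the constant. With a constant of 1 the interaction of AT5G37990 was 1.70 (adjusted p = 0.255), and those of CYP707A1 (0.15) and CYP94B1 (0.14) lay above 0 rather than below it.

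**Figure D4:**
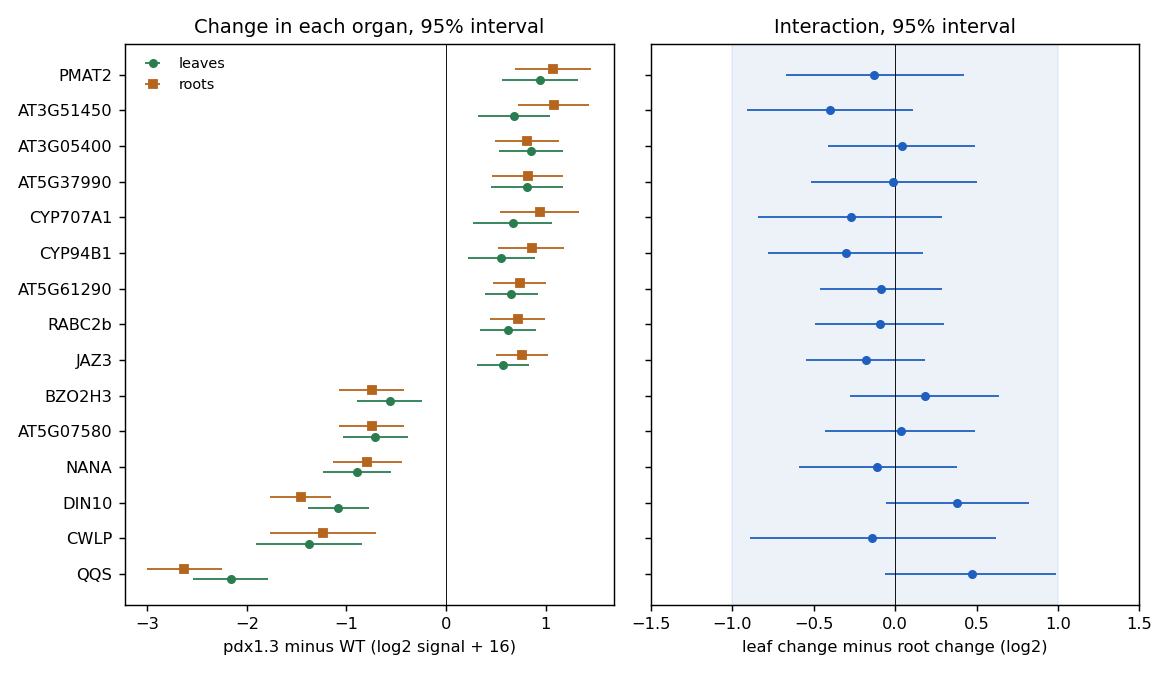
Change from WT to pdx1.3 in leaves and roots (left) and their difference (right) in log2(signal + 16) for the 15 genes alike in both organs, with 95% intervals from limma. The shaded band marks 1 log2 unit either way, and the upper bound of QQS at 0.99 is nearest to its edge.

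The number of alike genes was small in every fit and moved widely. It was 2 without pdx1.3 roots replicate 1 and 31 without pdx1.3 roots replicate 3. It was 6 without WT roots replicate 2 or 3 or pdx1.3 leaves replicate 2 or 3, 8 without WT leaves replicate 2 or WT roots replicate 1, and 9 without pdx1.3 roots replicate 2. A further 7 probe sets changed in both organs in the same direction with an interval that reached beyond the limit. Just outside it lay AOS, an enzyme of jasmonate synthesis (1.47 and 1.05, interaction 0.42, 95% interval -0.24 to 1.08), and the sulphate transporter SULTR2;1 (1.3 and 1.58, interaction -0.28, 95% interval -1.01 to 0.45).

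In 3 probe sets the direction was the same and the size differed: PDX1.3, THAH and a probe set that several loci share and that therefore names no gene. The last had 3.92, 7.76 and 30.2 in WT leaves, 285, 436 and 323 in mutant leaves, 138, 210 and 172 in roots of WT, and 643, 355 and 598 in mutant roots. It rose by 3.68 and 1.51 (interaction 2.17, limma adjusted p = 0.0251), and was called for the interaction in 6 of the 12 fits.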

How the data were processed

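Per the file headers, the authors used MAS5 in GCOS, of unstated versions, to turn each scanned ATH1 array into intensities, 1 signal for each probe set, and scaled the arrays to a common trimmed mean. These deposited intensities are linear, and the authors' detection calls (present, marginal or absent) and 3'/5' ratios of actin and GAPDH come with them. Tools are named as in the submitters' processing notes. Groups and replicate numbers came from the sample titles. Of 22810 probe sets 64 controls were left out. Of the rest 21646 name 1 locus, 1095 several and 5 none. Symbols were looked up by locus in NCBI's TAIR10.1 annotation, which held 21357 of those with 1 locus. The files name no build, so no coordinates are printed.

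From the deposited values, 16 was added, log2 taken, and a mean per group fitted over the 12 arrays with limma 3.58.1 in R 4.3.3, with a variance trend, 8 residual degrees of freedom and Benjamini-Hochberg adjustment over 22746 probe sets. The fit was tested on data simulated from the mean of each organ over both genotypes, with a spread per probe set pooled over the groups. The noise was independent on every array, and known interactions were given to probe sets of above-median level. Of 100 interactions of 1 log2 unit 40 were called, and of 100 of 2 log2 units 94, with 6 false calls. An interaction of 1 log2 unit was thus often missed in the simulated data. These held no other genotype change and no deviation shared by the probe sets of an array. The counts may therefore not hold for the real arrays. Intervals are 95% intervals of the moderated fit, and 3 arrays per group limit the precision. Members and the 21 gene lists (426 distinct loci together with the 2 marker lists), 1 probe set a gene, were chosen with earlier results of these data known, and no list was tested as a set. A member of 1 list is not reported here, and is left out of that list's counts. Named were PDX1.3, the 10 highest and 10 lowest called interactions among single-locus probe sets with a group mean above the median signal, up to 5 opposite genes a direction, the 6 highest and 6 lowest alike genes by average change, and per list up to 3 called and 2 alike members. The remaining alike genes and those marked so in the text were named after their values were seen. Alternatives were quantile normalization, median centring, constants of 1 and 64, at least 3 present calls, the other deposited table of intensities, other variance models, an actin ratio covariate, an adjusted p under 0.01, a 1.5-fold interval for alike genes, replicate blocks, and leaving out arrays.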

Additional observations from a re-analysis of the deposited data

Results flagged for a closer look

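The results here are those whose mutant change differed between leaves and roots by the test of that difference: 425 probe sets, and the 48 named genes among them, given as interaction log2 values. For genes called absent throughout 1 organ, such as MRN1, AT5G04120 and RAB18, the value rests on the change in the other organ. Below 0 with a call in all 12 fits without 1 array were MRN1 (-4.41), AT5G04120 (-3.83), CYP705A12 (-2.67), CYP71A16 (-2.37) and JAZ10 (-1.59), which moved in roots. XTH15 (-3.60), MIOX2 (-3.30), DREB26 (-2.73), CYP71B22 (-2.50), LBD41 (-1.93), PRODH1 (-1.92), PCO1 (-1.67), MGD2 (-1.20) and PLDZ2 (-1.10) moved in leaves. ARD3 (-3.21), AT1G22550 (-1.38) and PDX1.3 (-2.43) moved in both. Above 0 with a call in all 12 fits were RAB18 (2.88), RD29B (2.57), AT1G52000 (2.34), ORA47 (2.33), CIPK5 (2.21), MYB47 (2.19), NCED3 (2.06), ABI1 (1.65) and IAA14 (1.23) through leaves, and CHI (2.69) through roots. CHI also rose in leaves without a call.

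The other 21 named genes lost the call in at least 1 such fit. PP2-A5 (-2.51), AT2G15020 (2.47), IAA19 (-1.32) and JAR1 (0.92) lost it in 1 fit, without WT roots replicate 2. AT3G28220 (2.48) was called in 9 fits, BHLH101 (0.80) and RVE2 (1.3) in 8, AT2G41190 (2.30), F6'H1 (0.90), GGCT2;1 (-1.62) and KMD4 (1.36) in 7, and MYB34 (1.22), PRR9 (1.47) and MGD3 (-1.23) in 6. JAZ9 (1.25) was called in 4, ACS7 (-2.01) and NRT1.5 (1.06) in 3, NAS2 (0.93) and PAP1 (0.95) in 2, and MIPS2 (1.02) and PAP2 (0.65) in 1. For these 21 the highest limma adjusted p in such a fit was 0.124, for NAS2 without pdx1.3 roots replicate 1.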

How the results depend on the processing

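No interaction of the 48 called named genes changed direction under any alternative tried, and between 28 and 46 of them stayed called in the fits without 1 array. The 48 were chosen by their call on the same arrays, which made a change of direction unlikely from the start. The interactions of 9 of the 13 named alike genes, near 0 and not called, lay on the other side of 0 in 31 of 325 values. None of the 31 was called, and their sizes were at most 0.32 apart from 1.70 for AT5G37990 with a constant of 1. With quantile normalization 422 probe sets were called, with centring 449 and from the other deposited signals 429, and the share above 0 was 55.9, 51.9 and 60.1% beside 60.5%. Of the 48 named genes 45 stayed called with quantile normalization, 44 with centring, 46 with the actin covariate or without a variance trend, 41 with the replicate number as a block across all groups, 35 with a constant of 1, 30 with that block within each organ and 22 at an adjusted p under 0.01. A constant of 1 gave 248 interaction calls, 16 genes called in both organs in the same direction and 5 alike genes. A constant of 64 gave 145 calls of at least 2-fold. At an adjusted p under 0.01 there were 90 calls, 84 of them at least 2-fold, with 4 genes in the same direction, 2 alike and 0 opposite. Alike genes numbered 6 with a 1.5-fold interval. Opposite genes numbered 6 with the actin ratio as a covariate and 4 with the filter on present calls. Without both leaf arrays numbered 1, which earlier results of these data had found apart, 39 genes changed in the same direction, 23 were alike and 5 opposite. Leaving out 1 array gave 137 to 554 interaction calls, 126 to 416 of at least 2-fold, 5 to 47 in the same direction, 2 to 31 alike and 1 to 7 opposite. The cause of these shifts was not tested. Deviations from the group mean correlated at -0.24 to 0.44 between samples of the same number. For mutant leaves with mutant roots the values were 0.23, -0.22 and 0.44. Samples of different numbers were not compared, so pairing was not settled, and the numbers were not taken to pair samples. With the replicate number as a block across all groups 338 probe sets were called, 12 in the same direction and 6 alike. With the replicate number as a block within each organ 135 were called, 122 of at least 2-fold, with 6 in the same direction, 2 alike and 0 opposite. Among the genes called in all 12 fits without 1 array, PCO1 (limma adjusted p = 0.0534) and PLDZ2 (0.0633) lost their calls with the block within each organ. With 3 arrays a group the median SE was 0.21 for the interaction and 0.15 for the change in an organ.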

Other observations

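Among the interaction genes called in all 12 fits were members of groups for which no list had been drawn up. The groups below were put together after the values of some members were seen, so they are described and not tested. Of 9 measured genes for ABA receptors, the proteins that bind the hormone and inhibit phosphatases such as ABI1, 3 fell in leaves, none rose, and none was called in roots. Over all probe sets 2.51% fell and 4.7% rose in leaves, and 0.809% were called in roots. PYL4 had signals of 1151, 1177 and 1205 in WT leaves, 236, 226 and 273 in mutant leaves, 900, 688 and 533 in roots of WT and 597, 609 and 618 in mutant roots. PYL5 had 661, 505 and 610 in WT leaves, 121, 79.5 and 78.6 in mutant leaves, 545, 354 and 278 in roots of WT and 306, 342 and 270 in mutant roots. In both, the genotypes were separate in leaves and overlapped in roots, and the interactions were -2.02 and -2.20 (limma adjusted p = 0.00126 and 0.00495). PYL6 fell in leaves by 1.87 on the log2 scale, with a root change of -1.03 that was not called and no interaction call (-0.84, adjusted p = 0.496). PYL4, PYL5 and PYL6 were lower in the same leaves in which ABI1 was higher. A link between these changes was not tested.

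Genes of sterol and squalene synthesis were examined in the same way. All 18 measured members had a leaf change below 0, with 3 called, and 15 of 18 had a root change above 0, with 1 called. Of all 21439 genes 11289 lay above 0 in leaves and 11590 in roots. Over all probe sets 2.51% fell in leaves and 0.497% rose in roots. The medians of the 18 were -0.23 and 0.081. For the interaction 4 members were called, all below 0, beside 0.739% of all probe sets. SMT3, a sterol methyltransferase, had 478, 506 and 439 in WT leaves, 180, 173 and 151 in mutant leaves, 641, 551 and 575 in roots of WT and 707, 753 and 568 in mutant roots, with an interaction of -1.6 (limma adjusted p = 0.00163). SMT1 had -1.10 (adjusted p = 0.00894) and XF1, a squalene epoxidase, -1.19 (adjusted p = 0.00866). HMGS, which acts at the start of the mevalonate pathway, was called for the interaction (-0.96, adjusted p = 0.0281) without a call in either organ (-0.49 and 0.46), and in 5 of the 12 fits. Marneral and thalianol, whose genes rose in roots, are made from the same precursor as sterols. A link between the changes of these genes was not tested.

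Of the 6 measured genes of methionine salvage only ARD3 was called in any comparison. Over all probe sets 7.22% were called in leaves, 0.809% in roots and 1.87% for the interaction. Of 6 chitinase loci on chromosome 2 with adjacent locus numbers, CHI fell in roots alone, and AT2G43590 fell in both organs (-1.44 and -2.44, interaction 1.01, 95% interval -0.0043 to 2.02). AT2G43620 fell in leaves (-3.79) with an interaction of -3.45 that was not called (limma adjusted p = 0.123), and the other 3 were called in neither organ.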
